A study of Homo sapiens with 2 samples.

Results

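ASH1 (gene symbol ASH1L) peaks on human chromosome 19 were examined in K562, a leukaemia cell line derived from a patient with chronic myelogenous leukaemia. The peaks were all rows of the deposited lists placed on this chromosome, with no selection by score. They numbered 55 of 910 peaks in replicate 1 and 231 of 4646 in replicate 2, or 286 of 5556 in all. The regions and tests were chosen with earlier results of these data known, so the tests are not of a question set blind to the data. The 2 samples are biological replicates of untreated, formaldehyde-fixed cells, and the antibodies were rabbit polyclonals raised in-house against the C-terminal end of ASH1. Replicate 1 used antibody batch 1 and replicate 2 used antibody batch 3. Antibody batch and replicate therefore cannot be told apart, and there is 1 sample per batch. K562 has an abnormal karyotype, and the copy number of chromosome 19 was not analysed here. No control library or second condition was used here.

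ASH1 is a SET-domain protein of the trithorax group, a family known for keeping genes active, and it methylates lysine 36 of histone H3. The title of the study concerns chromatin that carries trimethylated lysine 36 and trimethylated lysine 9 of histone H3 together. Genes of the KRAB zinc-finger family encode DNA-binding repressors, many of which bind transposable elements and recruit the corepressor KAP1 with enzymes that methylate lysine 9. The genes of this family are themselves known to carry both marks over their bodies in several cell types, and they lie in tandem clusters, above all on chromosome 19. In the RefSeq gene table of GRCh38, 250 of 517 protein-coding genes with a ZNF number as symbol lie on chromosome 19 (48.4%), against 1451 of 20056 protein-coding genes of any kind (7.23%). The peaks are given on hg19, and each position named is a chromosome 19 coordinate of that build. With no hg19 annotation used here, the peaks were not assigned to single genes, and the histone marks were not analysed here.

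Each peak has a score, the authors' own value, which by its form is taken here to be a p-value of their peak caller as negative log10, multiplied by 10. Deeper sequencing raises such a score even at equal enrichment, and the depth of both libraries is unknown. The lowest score on chromosome 19 was 50.03 in replicate 1 and 70.08 in replicate 2, and 27 of the 55 replicate 1 peaks scored below 70. A replicate 1 peak with such a score lies under the range of the replicate 2 list. Peaks of both lists that overlap by at least 1 bp are called shared.

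Chromosome 19 held more peaks than its share of the genome's length in both lists. That share is 1.91%, while the chromosome holds 7.23% of protein-coding genes (GRCh38). An excess over its share of genes was not tested. The fold over its share of length was 3.18 in replicate 1 (95% interval 2.41 to 4.10) and 2.63 in replicate 2 (2.31 to 2.98; exact binomial test, p adjusted over 24 chromosomes 2.3e-12 and 1.5e-36). Among all chromosomes, 33.3% were called higher in replicate 1 and 33.3% in replicate 2, 8 of 24 in each. Peaks of a neighbourhood are not independent, so each p describes the list and not the spread between experiments. The median score on the chromosome was 71.7 in replicate 1, against 61.3 on the other chromosomes, and 118.3 in replicate 2, against 149.2. Replicate 1 peaks were 522 to 2185 bp wide (median 983 bp), and replicate 2 peaks 518 to 2993 bp (median 1071 bp). The widest peak of each list was at the same place, in 19q13.12, spanning 35788037 to 35790221 (replicate 1) and 35787408 to 35790400 (replicate 2).

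Of the 6 segments, the 2 of the outer short arm had the highest densities in both lists. The 2 from 13.9 to 43.5 Mb, a stretch that includes the centromere, were among the 3 lowest. In 19p13.3, from 0 to 6.9 Mb, replicate 1 had 13 peaks, or 1.88 per Mb (exact 95% Poisson interval 1.003 to 3.22), and replicate 2 had 60, or 8.70 per Mb (6.64 to 11.2). In 19p13.2, from 6.9 to 13.9 Mb, there were 16 replicate 1 peaks (2.29 per Mb, 1.31 to 3.71) and 37 replicate 2 peaks (5.29 per Mb, 3.72 to 7.29). The chromosome as a whole held 0.93 peaks per Mb in replicate 1 and 3.91 in replicate 2, and of the 4 intervals of these bands only that of 19p13.2 in replicate 2 contains the value for the chromosome. From 13.9 to 24.4 Mb the densities were 0.381 per Mb in replicate 1 (0.104 to 0.975, 4 peaks) and 1.81 in replicate 2 (1.09 to 2.83, 19 peaks). From 24.4 to 43.5 Mb, across the centromere, they were 0.524 (0.251 to 0.963, 10 peaks) and 2.93 (2.21 to 3.81, 56 peaks). The length of this segment includes the centromere bands 19p11 and 19q11, 2.1 Mb each, which held 0 replicate 1 and 6 replicate 2 peaks. Its densities would be higher without them. From 43.5 to 51.4 Mb they were 0.506 (0.138 to 1.30, 4 peaks) and 3.54 (2.36 to 5.12, 28 peaks). The distal long arm, from 51.4 Mb to the chromosome end at 59.1 Mb, stood close to the chromosome's mean with 1.04 (0.447 to 2.04, 8 peaks) and 4.01 (2.73 to 5.69, 31 peaks). The intervals cover counting error only.

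**Figure D1:**
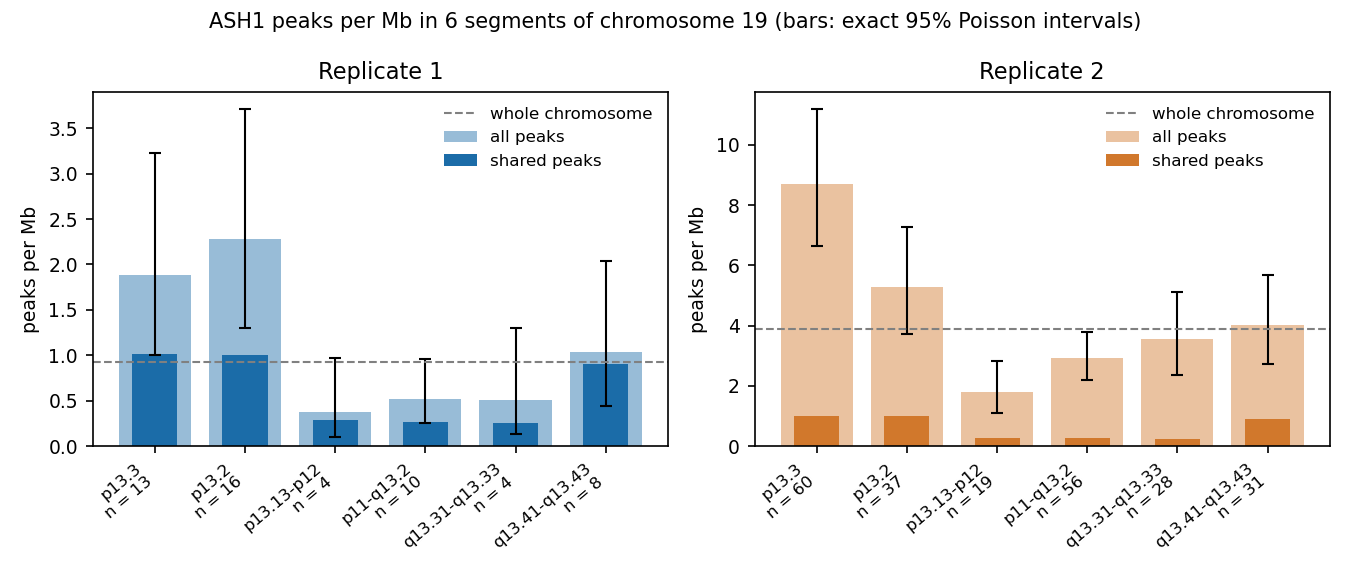
Peaks per Mb in the 6 segments for replicate 1 (left) and replicate 2 (right); wide bars are all peaks, narrow bars shared peaks, lines exact 95% Poisson intervals, the dashed line the whole chromosome, and n the number of peaks. The segment 19p13.3 reaches 8.70 per Mb in replicate 2 and 19p13.2 reaches 2.29 per Mb in replicate 1, while the segment that ends with 19p12 stands at 0.381 and 1.81.

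Single bands were also tested. Over all 862 bands of the genome, 3.94% were called higher than their length in replicate 1, 10.8% in replicate 2 and 2.78% in both lists (exact binomial test, adjusted over all bands). On chromosome 19, 3 of 19 bands were called higher in replicate 1, 8 of 19 in replicate 2 and 2 of 19 in both. The bands called in both were 19p13.3 (6.44 and 5.86 times the genome's density) and 19p13.2 (7.82 and 3.56 times). In replicate 1 the other was 19q13.41, with 6 peaks (9.33 times, 3.43 to 20.2, exact test, adjusted p = 0.0024). Of the other 6 bands called in replicate 2, the highest was 19q13.42 with 18 peaks (4.49 times, 2.66 to 7.09, exact test, adjusted p = 5.3e-06). Replicate 1 had 0 peaks in 19q13.42, where a count of 0, taken as up to 3 counts over the length of the band, allows up to 1.11 peaks per Mb. This limit for a count of 0 is lower than the upper end of the exact two-sided interval given with the other densities. The remaining 5 were 19p13.12, 19q13.12, 19q13.2, 19q13.32 and 19q13.33, at 2.29 to 2.89 times. The bands did not follow the order of the segments, since 19q13.41 in replicate 1 and 19q13.42 in replicate 2 lie in the distal long arm, and 19p13.12, 19q13.12 and 19q13.2 lie between 13.9 and 43.5 Mb.

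Band 19p12, which is known for its tandem zinc-finger genes, held 0 peaks in both lists. The limit of 3 counts over its 4.4 Mb is 0.682 peaks per Mb. In replicate 2 it was called lower than its length (exact binomial test, adjusted p = 0.018), as were 10.4% of all bands. In replicate 1 it was not called, and the upper limit of its interval was 2.86 times the genome's density. The longest stretch of the chromosome without a replicate 2 peak, 4.64 Mb from 19887910 to 24525679, covers this band. In replicate 1 the longest stretch was 12.4 Mb, from 19775181 to 32144678, and also spans the centromere. Replicate 2 had 16 peaks in the centromere band 19q11 and the adjoining band 19q12, with scores from 73.02 to 431.18 (median 107.03). None of these 16 was shared, and replicate 1 had 1 peak there. On the whole chromosome 200 of 231 replicate 2 peaks were unshared, and a difference of these bands from this share was not tested.

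How far peaks recurred between the antibody batches was then counted. In replicate 1, 31 of 55 peaks were shared, 56.4% (95% Clopper-Pearson interval 42.3 to 69.7%), and in replicate 2, 31 of 231 were (9.30 to 18.5%). On the other chromosomes the shares were 51.2% and 9.81%. The difference passed Fisher's exact test, adjusted over 24 chromosomes, in neither replicate 1 (odds ratio 1.23, adjusted p = 0.64) nor replicate 2 (odds ratio 1.43, adjusted p = 0.27). Among all chromosomes this test called 5 of 24 (20.8%) in replicate 1 and 0 of 24 (0%) in replicate 2, where 6 had an unadjusted p below 0.05. When peaks scoring below 70 were set aside in both lists, 82.1% of the replicate 1 peaks were shared (63.1 to 93.9%, 23 of 28). From a score of 100 upwards, all 18 replicate 1 peaks had a replicate 2 partner, while 30 of 151 replicate 2 peaks had a replicate 1 partner. The 24 unshared replicate 1 peaks scored 50.03 to 95.24, and 19 of them scored below 70.

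By position, the shared part of the replicate 1 list was 7 of 13 peaks in 19p13.3, 7 of 16 in 19p13.2, 3 of 4 from 13.9 to 24.4 Mb and 5 of 10 from 24.4 to 43.5 Mb. It was 2 of 4 from 43.5 to 51.4 Mb and 7 of 8 in the distal long arm, where the interval was 47.3 to 99.7%. In replicate 2 the shared part was 11.7% in 19p13.3 (4.82 to 22.6%), 18.9% in 19p13.2 (7.96 to 35.2%) and 22.6% in the distal long arm (9.59 to 41.1%). In the 3 segments between them it was 15.8%, 8.93% and 7.14%. These intervals overlap, and differences between segments in the shared part were not tested.

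Median scores ordered the segments differently in the lists. In replicate 1 the distal long arm had the highest median score of the 6 segments, 347.5, against 58.9 to 92.7 in the others. In replicate 2 the median there was 132.4, within the range of 103.9 to 145.9 of the other segments. Of the 8 replicate 1 peaks of the distal long arm, the 5 shared ones of 19q13.41 scored 343.4 to 813.67. The others scored 95.24, 66.23 and 68.35. The highest replicate 1 peaks of the segments, from the short-arm end to the long-arm end, scored 216.31, 169.87, 266.25, 378.31, 145.49 and 813.67, and all 6 were shared. Their starts were 2524035, 11574991, 19774042, 37663287, 49324881 and 52407758. The highest replicate 2 peaks scored 753.51, 1502.62, 316.63, 702.46, 571.66 and 1024.46, with starts at 3243891, 7514587, 14044997, 33740474, 50974474 and 55945432. No segment had its highest peak at the same site in both lists.

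**Figure D2:**
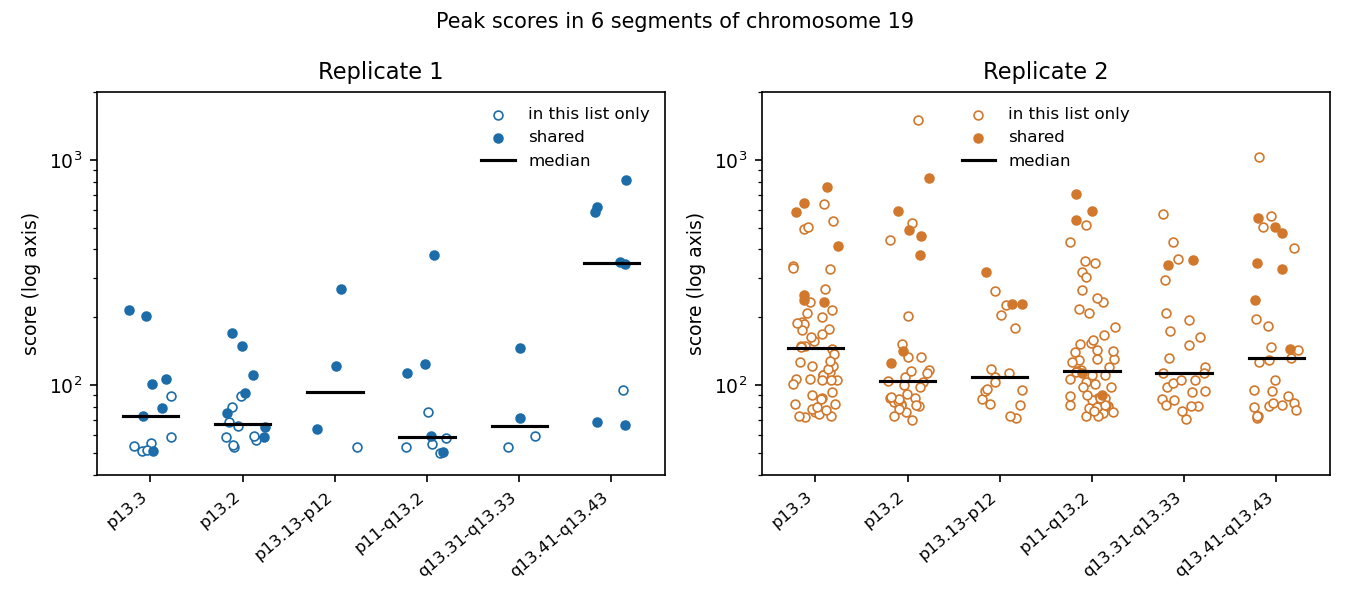
Score of every chromosome 19 peak by segment, on a log axis, for replicate 1 (left) and replicate 2 (right); filled points are shared peaks, open points lie in that list only, and black lines are medians. In replicate 1 the median of the distal long arm is 347.5, above the 58.9 to 92.7 of the other segments. The 5 shared 19q13.41 peaks of that arm score 343.4 to 813.67. In replicate 2 the medians lie between 103.9 and 145.9.

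The chromosome was next divided into 4 intervals that hold the large clusters of KRAB zinc-finger genes and the rest. Cluster A runs from 8.5 to 12.8 Mb in 19p13.2, cluster B from 19.7 to 24.4 Mb in 19p13.11 and 19p12, cluster C from 44.2 to 45 Mb in 19q13.31, and cluster D from 51.9 to 59.0 Mb in 19q13.41 to 19q13.43. Together they span 16.9 Mb, 28.6% of the chromosome. These intervals also hold other genes, and zinc-finger genes lie outside them too, among others in 19q13.12.

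Replicate 2 peaks were sparser in the clusters than elsewhere, and in replicate 1 no difference passed the test. Replicate 1 had 18 peaks inside (1.07 per Mb) and 37 outside (0.876 per Mb), a density ratio of 1.22 (0.651 to 2.19, exact two-sided binomial test p = 0.55). Replicate 2 had 45 inside (2.66 per Mb) and 186 outside (4.40 per Mb), a ratio of 0.605 (0.426 to 0.841, exact test p = 0.0017). Without cluster B the replicate 2 ratio was 0.800 (0.560 to 1.12). It kept its direction, but its call was lost (exact test p = 0.20), so the call depends on that cluster. Among shared peaks alone the ratio was 1.19 (0.500 to 2.64), with 10 peaks inside and 21 outside. Whether the lists differ from each other in this ratio was not tested.

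**Figure D3:**
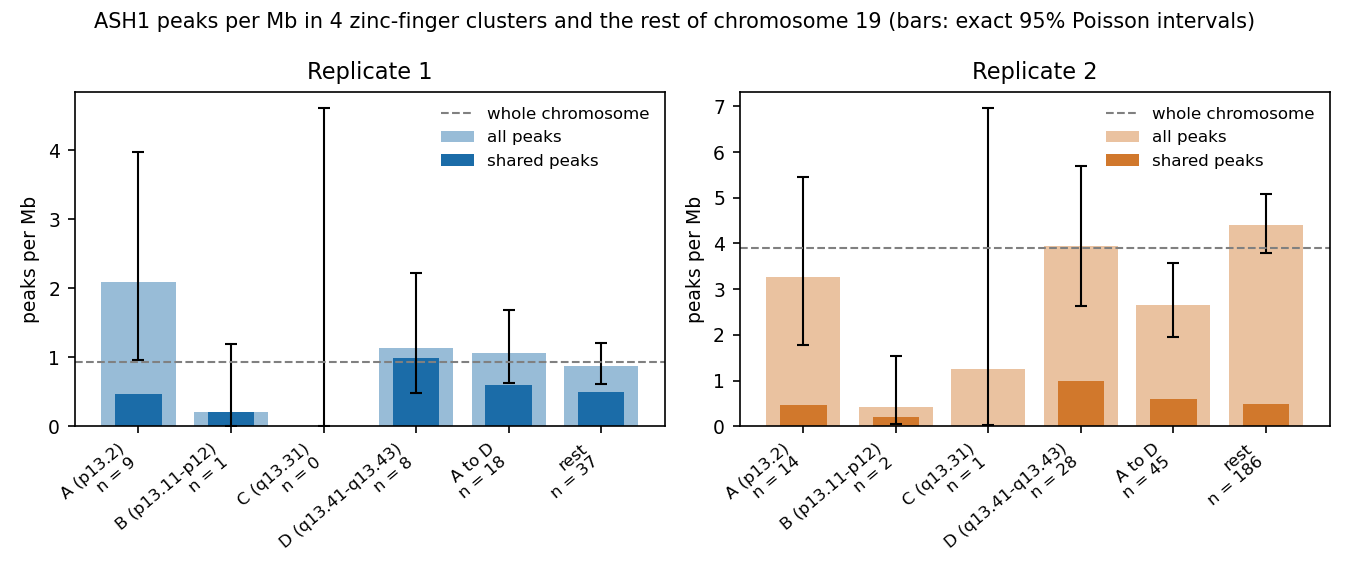
Peaks per Mb in clusters A to D, in the 4 together and in the rest of chromosome 19, for replicate 1 (left) and replicate 2 (right); bars, lines and n as in the plot of densities by segment. Cluster B stands at 0.213 and 0.426 per Mb, and in replicate 2 the clusters together reach 2.66 per Mb against 4.40 in the rest.

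The clusters were not alike, with cluster A dense in replicate 1, cluster B nearly empty in both lists and cluster D near the level of the remaining chromosome. Cluster A had 9 replicate 1 peaks (2.09 per Mb, 0.957 to 3.97) and 14 replicate 2 peaks (3.26 per Mb, 1.78 to 5.46). In replicate 1 that is 2.49 times the density of the remaining chromosome (1.07 to 5.16), and in replicate 2 it is 0.823 times (0.442 to 1.41). The 9 replicate 1 peaks had a median score of 68.77, under the lowest replicate 2 score of the chromosome, 70.08. The rest of the same band, 19p13.2, held 2.59 peaks per Mb in replicate 1 (1.04 to 5.34) and 8.52 in replicate 2 (5.40 to 12.8). In replicate 1 cluster A thus lay within the range of its band. In replicate 2 cluster A was sparser than the rest of the band, with intervals that barely overlap, and this difference was not tested. Cluster B had 1 replicate 1 peak and 2 replicate 2 peaks, 0.213 and 0.426 per Mb, and its replicate 2 density was 0.101 times that of the remaining chromosome (0.0122 to 0.370). Cluster C had 0 replicate 1 peaks, for which the limit of 3 counts is 3.75 per Mb and the upper end of the exact interval 4.61 per Mb, and 1 replicate 2 peak, from 44914388 to 44916090, with a score of 131.31. Cluster D had 8 and 28 peaks, 1.13 and 3.94 per Mb, at 1.25 times (0.509 to 2.66) and 1.01 times (0.655 to 1.51) the remaining chromosome.

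At the borders, the last replicate 1 peak inside cluster A ran from 12792135 to 12793198 with a score of 59.36, and the first outside from 12949889 to 12951343 with 74.88. A replicate 2 peak at 44179800 (score 112.9) lay just before cluster C, 1 at 45024683 (173.32) just after it, and 1 at 51823776 (147.51) just before cluster D.

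Cluster A shared 2 of its 9 replicate 1 peaks (22.2%, 2.81 to 60.0%), whereas cluster D shared 7 of 8 (87.5%, 47.3 to 99.7%). In the rest of the chromosome 21 of 37 were shared (56.8%, 39.5 to 72.9%), and the 4 clusters together gave 10 of 18 (55.6%, 30.8 to 78.5%). For replicate 2 the shared part was 10 of 45 inside (22.2%, 11.2 to 37.1%) and 21 of 186 outside (11.3%, 7.13 to 16.7%). The intervals overlap between clusters A and D and between inside and outside, and these differences were not tested.

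Cluster A held neighbouring runs of peaks that belong to different lists. In replicate 1, 5 peaks lay within 212.1 kb, from 8674690 to 8886758, with scores of 91.95, 53.07, 89.0, 59.06 and 65.76. Only the first of them was shared, with a replicate 2 score of 125.81, and its midpoints lay 742 bp apart. The middle 1 of the 5, from 8779470 to 8780516, was among the 3 highest unshared replicate 1 peaks of the chromosome and lay 7.27 kb from the nearest replicate 2 peak. Further along, 5 replicate 2 peaks lay within 36.2 kb, from 9015796 to 9052039, with scores from 77.92 to 116.54. None of these was shared, as held for 200 of the 231 replicate 2 peaks of the chromosome, and the nearest replicate 1 peak was 129.0 kb away. The other shared site of the cluster, from 11574991 to 11576392, had scores of 169.87 (replicate 1) and 834.15 (replicate 2), and only 2 replicate 2 peaks of the chromosome scored higher. It was the only peak of cluster A with a score of 200 or more, in replicate 2.

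In cluster B the single replicate 1 peak was shared. It lay at 19774042 to 19775180 in 19p13.11, near the telomeric border of the cluster, with scores of 266.25 and 229.22. It ranked 25 of 910 in replicate 1 and 1417 of 4646 in replicate 2. The only other peak of the cluster, at 19886868 in replicate 2, scored 81.48. Thus no peak of either list lay in the part of cluster B that falls in 19p12.

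Cluster D combined a group of shared sites in 19q13.41 with 18 replicate 2 peaks in 19q13.42 that were all unshared. On the whole chromosome 200 of 231 replicate 2 peaks were unshared, and a difference of 19q13.42 from this share was not tested. The 19q13.41 group had 5 shared sites, separated by gaps of 332.8, 21.1, 99.98 and 19.3 kb. From the proximal to the distal one, they started in replicate 1 at 52073906, 52407758, 52429962, 52531174 and 52551686. Replicate 1 scores in this order were 587.04, 813.67, 351.63, 343.4 and 618.76, which ranked 11, 6, 19, 20 and 10 of the 910 peaks of the list. Replicate 2 scores were 549.48, 500.73, 348.16, 472.03 and 328.89, which ranked 289, 357, 742, 396 and 822 of 4646. In replicate 1 these sites were among the 20 highest of the genome. The lists differ in length and in their lowest score, so ranks are not compared between them.

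The peaks of the lists nearly coincided at these 5 sites. Their midpoints in the lists lay 31.5, 76, 105, 10.5 and 12 bp apart, against a median of 136 bp over all 31 shared sites of the chromosome. Close midpoints were not particular to this group. Over 34 pairs of the other chromosomes with a replicate 1 score of at least 200, the median was 62.75 bp. The offsets of 76 and 105 bp lie above that median. Widths were 1010, 1081, 1232, 1238 and 1504 bp in replicate 1 and 1087, 1037, 1332, 1283 and 1428 bp in replicate 2. Of the remaining 19q13.41 peaks, the replicate 1 peak from 52390785 to 52391674 scored 95.24, the highest unshared score of replicate 1 on the chromosome, and lay 16.2 kb from the nearest replicate 2 peak. The next highest unshared replicate 1 peak of the chromosome was in 19p13.3, from 3039152 to 3040265, with a score of 89.14. The unshared replicate 2 peaks of the band scored 147.51 (51823776 to 51825379) and 79.78 (52191665 to 52192414).

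**Figure D4:**
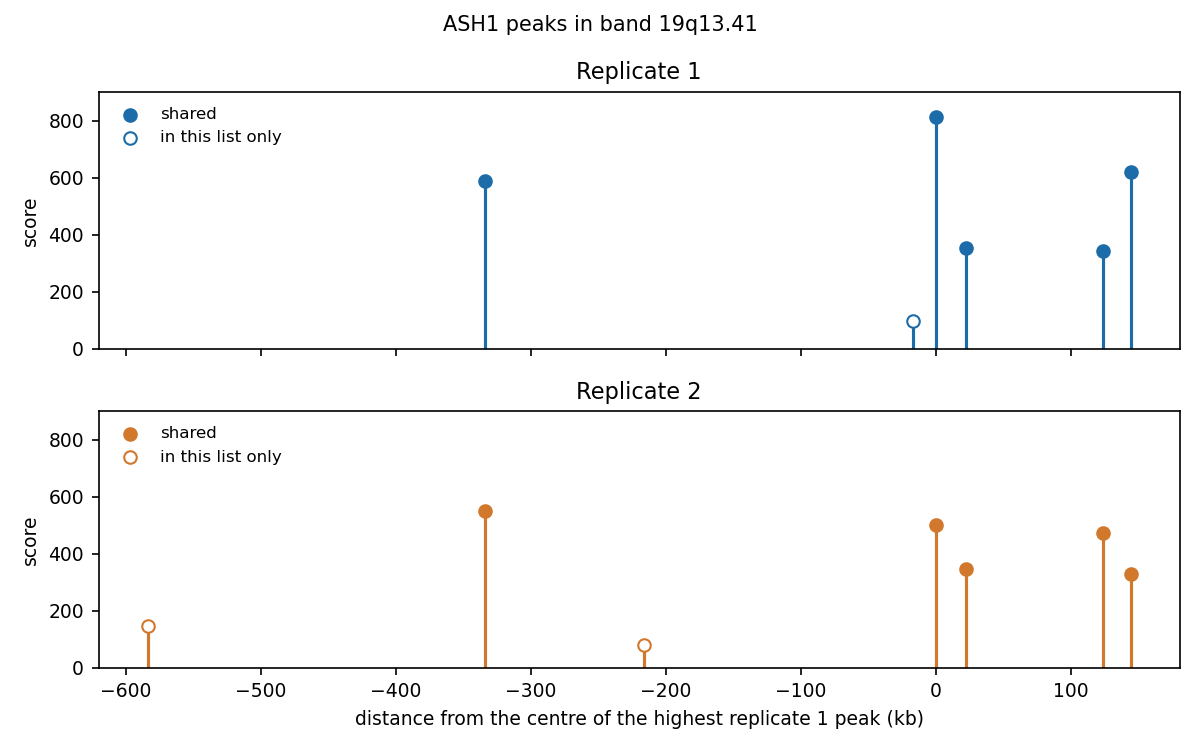
Scores of all 19q13.41 peaks against the distance in kb from the centre of the highest replicate 1 peak, for replicate 1 (top) and replicate 2 (bottom); filled points are shared. The same 5 positions carry the shared peaks in both lists, and 4 of the 5 lie between 0 and 144.1 kb.

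In 19q13.42 the 18 replicate 2 peaks scored 71.51 to 1024.46 (median 117.3), and 4 of them reached 200. The highest ran from 55945432 to 55947128 and was next to the top among replicate 2 peaks of the chromosome. It lay 968.7 kb from the nearest replicate 1 peak, and the nearest of all 18 lay 657.0 kb away. Other high unshared replicate 2 peaks lay outside the clusters, at 7514587 to 7516248 in 19p13.2 (1502.62, the highest of the chromosome) and at 4035241 to 4037307 in 19p13.3 (634.67). Towards the end of the long arm, in 19q13.43, 2 sites were shared. At 56915784 the scores were 66.23 and 237.89, and at 58838213 they were 68.35 and 144.24.

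Over all 31 shared sites, the replicate 2 score was 2.72 times the replicate 1 score at the median (exact 95% interval of the median 1.78 to 4.40). On the other chromosomes the median of 435 pairs was 4.10 (3.89 to 4.36), within the first interval. Inside the clusters the median ratio was 1.18 over 10 sites (0.615 to 3.59), and 5 of the 10 scored higher in replicate 1. Outside the clusters it was 3.59 over 21 sites (2.34 to 5.26), with 0 of 21 higher in replicate 1 (0 to 16.1%). The intervals of the 2 median ratios overlap. For the share of sites higher in replicate 1, the interval inside was 18.7 to 81.3%, which does not overlap the one outside. Neither difference was tested. The 5 sites that scored higher in replicate 1 were the one in cluster B and 4 of the 5 in 19q13.41, with replicate 2 to replicate 1 ratios of 0.532 to 0.990. With 19q13.41 set aside, the median ratio of the other 26 sites was 3.41, and 1 of 26 scored higher in replicate 1.

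The ratio moved with the replicate 1 score, which is its own denominator. Among sites with a replicate 1 score of at least 200, the median ratio was 0.990 over 9 chromosome 19 sites (0.615 to 1.43) and 1.24 over 34 sites of the other chromosomes (0.919 to 2.15). In this range 5 of 9 and 12 of 34 scored higher in replicate 1. Of the 9 sites, 6 lay inside the clusters and 3 outside, and the 3 outside had ratios of 1.18, 2.72 and 1.43. Sites inside the clusters had a median replicate 1 score of 304.8 and those outside 100.96, while the replicate 2 medians were 338.5 and 378.6. The part of the replicate 1 score in the contrast of ratios was not tested further.

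**Figure D5:**
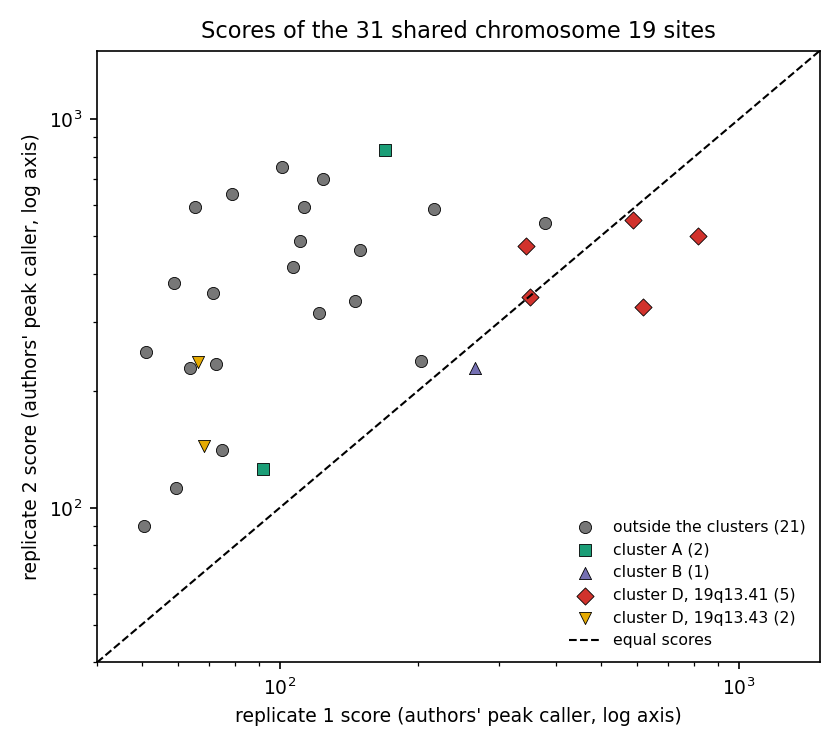
Replicate 2 against replicate 1 score of the 31 shared chromosome 19 sites, both axes logarithmic; colours and symbols give the cluster, with the number of sites in brackets, and the dashed line marks equal scores. The 5 points below the line are 4 sites of 19q13.41 and the site of cluster B, and all 21 grey points outside the clusters lie above it.

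By the mean of the percentile ranks within each list, the 10 highest shared sites of the chromosome included 5 inside the clusters. The first was the proximal 19q13.41 site (52073906), followed by a 19q13.12 site outside the clusters, from 37663287 to 37664049, with scores of 378.31 and 539.13. The 19q13.41 site with the highest replicate 1 score (52407758) and the cluster A site at 11574991 came next. After them was the 19p13.3 site from 2524035 to 2525196, with scores of 216.31 and 587.94. The other two 19q13.41 sites of the 10 started at 52531174 and 52429962. The remaining sites, all outside the clusters, were at 33740424 in 19q13.11 (124.27 and 702.46), at 7106537 in 19p13.2 (149.2 and 460.01) and at 35788037 in 19q13.12 (112.88 and 593.71). Of the 10 highest replicate 1 peaks of the chromosome, 7 lay inside the clusters, and of the 10 highest replicate 2 peaks, 2 did.

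Shared sites outside the clusters were spread along both arms, 7 of them in 19p13.3. The 19p13.3 sites scored 51.11 to 216.31 in replicate 1 and 234.77 to 753.51 in replicate 2, with ratios of 1.18 to 8.18. The highest ratio of the chromosome, 9.11, was at 7395850 to 7396662 in 19p13.2, where the scores were 65.28 and 594.53. In 19q13.12 all 3 replicate 1 peaks were shared, and the most distal, at 37701142, scored 50.64 and 89.92, the lowest score of any shared site of the chromosome in either list. When 19q13.12 was counted with the clusters, an alternative added after the data were seen, the density ratios were 1.24 in replicate 1 and 0.656 in replicate 2 (exact binomial test p = 0.48 and 0.0051).

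Spacing within each list is given as a description, since the replicate 2 list holds more peaks on the same length and must be the more closely packed. The median gap between neighbouring peaks was 459 kb in replicate 1 and 117 kb in replicate 2. Peaks less than 10 kb from another numbered 0 of 55 and 31 of 231. In replicate 2 the most crowded windows of 250 kb held 9 peaks each, both in 19p13.3, from 322854 to 565747 and from 2335452 to 2576498, with 1 and 3 shared. In replicate 1 they held 5 peaks each and both lay in clusters, the run from 8674690 in cluster A and the 19q13.41 group from 52390785 to 52553189. The first shared 1 of its 5 peaks and the second 4.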

How the data were processed

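Chromatin immunoprecipitation with sequencing was analysed from 2 deposited lists of peaks, 1 per sample. BWA and MACS are named in the submitters' processing notes. For their versions and settings, and for any control, the sources used here give nothing. The score in the deposited lists is the authors' own value and was taken from its form to be the negative log10 of a p-value multiplied by 10. Depth is unknown. Coordinates are hg19, 1-based. Chromosome lengths and bands of hg19 came from circlize 0.4.16. A peak was placed by its midpoint. Tests are exact binomial tests against share of length and Fisher's exact test. Benjamini-Hochberg adjustment was over 24 chromosomes or 862 bands, with a threshold of 0.05. The binomial test of chromosomes and the cluster contrast were tried on simulated peaks, which were placed independently of each other. The test of bands and Fisher's exact test were not tried on simulated data. The cluster contrast was not adjusted. Densities carry exact Poisson and shares Clopper-Pearson intervals. Sites named are all shared sites in the clusters, the 10 highest shared sites by mean percentile rank, the 3 highest unshared peaks of each list, and the highest peak of each segment and widest of each list; others were chosen after their values were seen. The regions and tests were chosen with earlier results of these data known. No genome or annotation of hg19 was used, so no gene names or sequences are given. Analyses ran in Python 3.11.15 with scipy 1.17.1 for the tests, pandas 2.3.3, numpy 2.4.6 and, for plots, matplotlib 3.10.9.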

Additional observations from a re-analysis of the deposited data

How the results depend on the processing

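The density ratio of the clusters in replicate 2 kept its direction and its side of the threshold in 10 of 12 alternatives, with values of 0.394 to 0.690. Among these, scores of at least 70 removed 0 replicate 2 peaks, so that result was fixed in advance and is no check. Counting peaks with any base inside left the same 45 of 231 peaks in the clusters. Without cluster B it was 0.800 (exact binomial test p = 0.20), and with only shared peaks it was 1.19, since the lists then hold the same sites (p = 0.69). The replicate 1 ratio passed the threshold in none of its 12 alternatives (exact p of 0.056 to 0.77). It was 1.09 to 1.97 in 11 of them and 0.815 without cluster A. The mean ratio of both lists, 0.910, was 0.605 to 1.22 with 1 replicate left out. Bands of chromosome 19 called higher numbered 2 in both lists and 3 to 8 with 1 replicate left out, as a call then needs 1 list. The excess of chromosome 19 held at 2.63 to 4.35 times in both alternatives, of which the cut at a score of 70 could not change replicate 2. With scores of at least 70 the shared part of replicate 1 was 82.1%. The median score ratio was 2.60 to 2.72 on the chromosome and 0.963 to 1.37 inside the clusters, where all alternatives were added after the data were seen. No paired analysis was possible because both samples belong to the same group. Absence from a list means only that no peak passed its threshold at an unknown depth.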

Other observations

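The unplaced sequence gl000208, assigned to chromosome 19 without a position, held 3 replicate 2 peaks with scores of 250.28, 209.7 and 97.38 and 0 replicate 1 peaks. These entered no comparison.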
